A study of Schizosaccharomyces pombe with 14 samples.

Results

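The response of fission yeast to a shift from 30°C to 37°C for 2 h was read from 6 of the 14 RNA-seq libraries of the series, which cover 3 strains at both temperatures. All cells grew in EMM (Edinburgh minimal medium) and were of mating type h+, with the markers ade6M210, leu1-32, ura4-D18 and his3-D1. The mutant, pac1-ts, carries in addition pac1-G1024A, a single-base substitution recreated by genome editing in pac1, which encodes the RNase III homolog Pac1, and it was sequenced as 2 independent clones. The wild type (WT) gave 1 library at each temperature, so that its change is an unreplicated check with no test. For pac1-ts, 30°C is semi-restrictive and 37°C restrictive, so that heat and a further loss of Pac1 function cannot be told apart in the mutant alone. The changes below are therefore those of the 2 clones, 37°C against 30°C paired by clone, and the WT change is set beside them.

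Between 15997568 and 17743083 fragments were counted on genes in each library, and levels are given as CPM (the count scaled to the library total and its TMM factor). A count of 3, taken as the limit of detection, was between 0.169 and 0.188 CPM of a library total. Of the 7049 genes in the count table, 6728 passed the filter on low counts and were tested. Transcripts of pac1 itself, which a point mutation does not remove and which therefore do not check the genotype, were at 248 and 69.0 CPM in WT at 30°C and 37°C, at 124 and 85.8 CPM in clone 1 and at 121 and 77.2 CPM in clone 2. Ribosomal RNA genes took 11.3% and 11.4% of the counts in WT and from 14.7% to 17.6% in pac1-ts. The TMM factors were between 0.868 and 0.930 at 30°C and between 1.10 and 1.16 at 37°C, and the 50 genes with the largest share of counts at 30°C took from 33.8% to 39.6% of the counts at 30°C and at most 30.7% at 37°C. Since these were chosen at 30°C, part of that fall is built in. The 50 largest genes of each library itself took from 34.2% to 39.8% at 30°C and from 29.0% to 35.6% at 37°C.

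Heat unfolds proteins, and eukaryotic cells answer with chaperones that hold, refold or disaggregate them, driven by the heat shock factor Hsf1, which binds inverted repeats of the bases GAA. In fission yeast a second arm runs through the stress-activated kinase Sty1 and the bZIP factors Atf1 and Pcr1, which induce catalase, trehalose synthesis and many other genes after heat, oxidation, salt or starvation. Growth genes, those of ribosomal proteins above all, are turned down in the same response.

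After the shift 433 genes were higher and 327 lower in pac1-ts, which is 6.44% and 4.86% of the genes tested (absolute log2 change above 1 and adjusted p below 0.01, quasi-likelihood test of edgeR, p-values adjusted over all genes by Benjamini-Hochberg). These shares are the background for the counts of called genes in the lists below, and for no list is a test against them given. Without the threshold on size, 1828 genes were higher and 2107 lower at the same adjusted p. The log2 changes of the 2 clones had a correlation of 0.926 across genes, and those of WT correlated with the clones at 0.836 and 0.823. These are descriptions across genes, which are not independent replicates. Of the 433 genes that rose, the WT pair moved in the same direction for 421 and past a log2 change of 1 for 300, with a median of 1.3 in WT and 1.36 in pac1-ts. Of the 327 that fell, 326 had the same direction in WT and 202 passed the fold, with medians of -1.09 and -1.24. Over all 6728 genes tested, called or not, 5628 had the same direction in WT and pac1-ts. Among them all, the WT pair passed a log2 change of 1 upward for 508 genes and downward for 330. The split between rises and falls depended on the scaling, since 57.0% of the calls were rises with TMM factors and 83.8% with library totals alone, which shifted the median log2 change of all genes from 0.02 to 0.31.

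**Figure D1:**
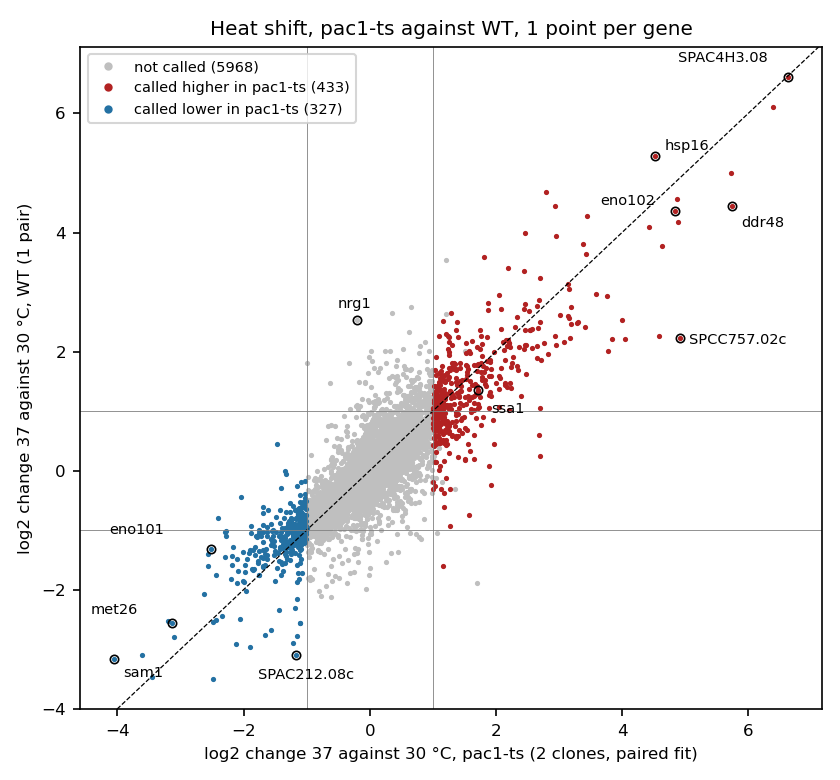
Log2 change from 30°C to 37°C in pac1-ts (x axis, 2 clones, paired fit) against WT (y axis, 1 pair), 1 point per gene, with the 433 genes called higher in red and the 327 called lower in blue and lines at a log2 change of 1 and -1. Most called genes lie near the dashed line of equal change, while SPCC757.02c (4.92 in pac1-ts, 2.22 in WT) and nrg1 (-0.21 and 2.53) lie away from it.

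The largest rise was that of SPAC4H3.08 (chromosome I, 3841498 to 3843136, 1 exon), annotated as a 3-hydroxyacyl-CoA dehydrogenase. Its level went from 11.1 to 1088 CPM in WT, from 49.7 to 5268 in clone 1 and from 60.2 to 5633 in clone 2. The 37°C library of each strain lay far above all 30°C libraries, with a log2 change of 6.64 (SE 0.097, adjusted p = 1.25e-20, edgeR) in pac1-ts and 6.61 in WT. The largest rises and falls, also those of lncRNA genes, were picked among genes with one direction in all strains. Both 37°C libraries of pac1-ts also had to lie beyond both 30°C libraries, so that this separation and the direction in WT were part of the choice. SPAC11D3.01c, of the Con-6 family, which in Neurospora is known from conidia, followed with 6.40 (WT 6.11), ddr48 with 5.75 (WT 4.45) and prl65 with 5.74 (WT 4.99).

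The other 6 of the 10 largest rises lay between 4.58 and 4.92 on the log2 scale in pac1-ts. They were SPCC757.02c, annotated as an epimerase, lsd90 (WT 4.18), the phosphoketolase family gene SPBC24C6.09c (WT 4.57), the enolase gene eno102 (WT 4.37), the metallothionein gene zym1 (WT 3.78) and SPAC4F10.17, a protein of no known function. Of these, SPCC757.02c (WT 2.22) and SPAC4F10.17 moved less in WT, with differences of 2.69 and 2.31 between pac1-ts and WT. Of zym1, which binds metal ions, the level was 16.3 and 224 CPM in WT, 55.3 and 1193 in clone 1 and 50.8 and 1465 in clone 2 at 30°C and 37°C.

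Of 25 chaperone and co-chaperone genes, 3 were called higher (12.0%) and none lower, against 6.44% and 4.86% of all genes, and their median log2 change was -0.14 in pac1-ts and -0.06 in WT (0.14 and 0.36 with library totals, where 6 were called higher). The strongest was hsp16 (SPBC3E7.02c), a small heat shock protein that binds unfolded proteins. It stood at 31.2 CPM at 30°C and 1215 at 37°C in WT, at 171 and 3575 in clone 1 and at 162 and 4112 in clone 2. All 37°C libraries exceeded all 30°C libraries, and the clones were already above WT at 30°C. The log2 change was 4.53 (SE 0.090, adjusted p = 5.65e-19, edgeR) in pac1-ts and 5.28 in WT.

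Of the other called chaperones, hsp9, a small stress protein related to budding yeast Hsp12, rose by 3.58 on the log2 scale (WT 2.97), from 408 and 517 to 4972 and 6061 CPM in the 2 clones. The Hsp70 gene ssa1 rose by 1.72 (WT 1.36), from 93.6 and 89.1 to 356 and 255 CPM in the clones and from 76.6 to 197 in WT. Its paralog ssa2, far more abundant with between 5963 and 10471 CPM, had a log2 change of -0.49 in pac1-ts and -0.63 in WT. The longest identical stretch of both transcripts is 56 nt, longer than a read of 50 nt, so that some reads could have gone to either gene.

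The disaggregase gene hsp104 was at 192 and 306 CPM in WT, at 262 and 307 in clone 1 and at 247 and 243 in clone 2, and its libraries overlapped between the temperatures. Its log2 change was 0.10 (SE 0.065, adjusted p = 0.17, edgeR) in pac1-ts and 0.67 in WT. The genes hsp90, a chaperone of kinases and receptors, and mas5, an Hsp40-type partner of Hsp70, had log2 changes of -0.30 and -0.77, with -0.28 and -0.38 in WT, under the threshold on size. Also under it but above 0 in all 3 strains were the Hsp40-type gene psi1 with 0.81 (WT 0.98), the small heat shock protein gene hsp20 with 0.80 (WT 0.91) and hsp78, a mitochondrial disaggregase, with 0.73 (WT 0.75). Their adjusted p-values were 9.76e-10, 3.6e-10 and 2.62e-09 (edgeR), and all 3 were called with library totals. Transcripts of hsf1 itself lay between 243 and 292 CPM in all 6 libraries, with a log2 change of 0.11 (adjusted p = 0.11, edgeR).

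All 5 genes of the Hsp31 type, which encode glyoxalases of the DJ-1 superfamily, were called higher. The log2 changes were 4.43 for hsp3101, 4.04 for hsp3102, 1.65 for hsp3105, 1.62 for hsp3104 and 1.21 for hsp3103, with 4.09, 2.21, 1.13, 1.44 and -0.12 in WT. For hsp3102 and hsp3103 the difference between pac1-ts and WT was itself called (1.83 and 1.33 on the log2 scale, adjusted p = 1.9e-07 and 1.56e-06, edgeR). This test assumes that the single WT pair varies as the clone pairs do.

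**Figure D2:**
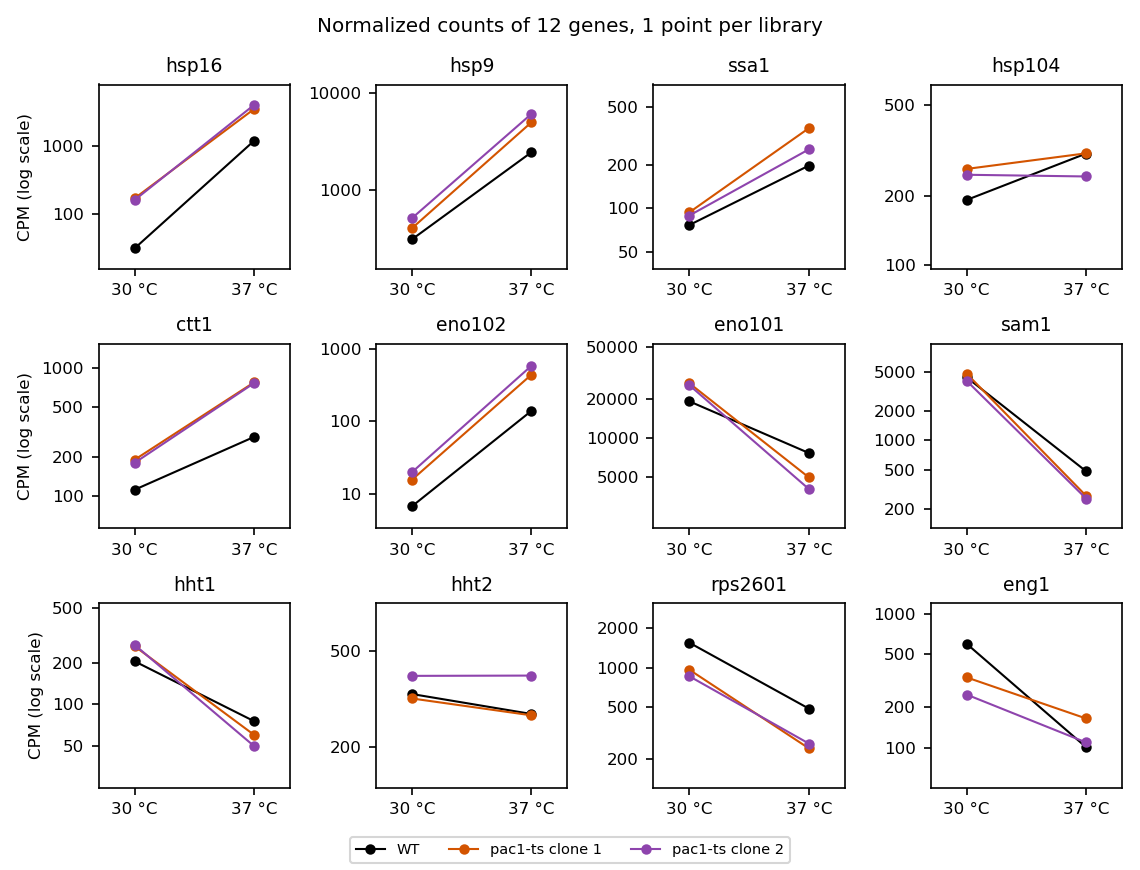
Normalized counts (CPM, log axis) of 12 genes at 30°C and 37°C, 1 point per library and 1 line per strain. The lines of hsp16, hsp9, ssa1, ctt1 and eno102 go up in all 3 strains and those of eno101, sam1, hht1, rps2601 and eng1 go down, while hsp104 and hht2 stay between 192 and 396 CPM.

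Genes of the type induced through Sty1 and Atf1 were mostly higher. Of 33 such genes, 17 were called higher and 1 lower, with a median log2 change of 1.00 in pac1-ts and 0.80 in WT. Catalase (ctt1), which breaks down hydrogen peroxide, was at 112 and 290 CPM in WT, at 192 and 776 in clone 1 and at 181 and 765 in clone 2, so that the lowest 37°C library exceeded the highest at 30°C. The log2 change was 2.05 in pac1-ts (SE 0.065, adjusted p = 6.77e-16, edgeR) and 1.38 in WT. The largest changes of the list after zym1 and hsp9 were those of rds1 with 3.30 (WT 2.49) and of gpx1, a glutathione peroxidase, with 3.18 (WT 2.22).

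Of 9 genes of trehalose, a sugar that protects proteins in heat, and of glycerol, 4 were called higher and none lower, with a median log2 change of 0.79 in pac1-ts and -0.13 in WT (1.07 and 0.29 with library totals). All 4 (tps1, ntp1, gpd1 and gld1) are also on the list of stress genes above, so that they are not separate calls. For gld1 the log2 change was 1.004 in pac1-ts and -0.19 in WT. The difference of 1.20 was called (adjusted p = 5.2e-07, edgeR, and 0.0044 without the clone block). Trehalose-6-phosphate synthase (tps1) changed by 1.04 on the log2 scale (WT 0.77), from 298 and 259 to 652 and 501 CPM in the clones, and the neutral trehalase ntp1, which degrades trehalose, by 1.60 (WT 1.03). The call of tps1 was lost in the model without the clone block when the 37°C library of clone 1 (0.82) or the 30°C library of clone 2 (0.95) was left out. The trehalose-phosphatase gene tpp1 had a log2 change of 0.12 (WT 0.37, adjusted p = 0.089, edgeR). Of the genes of glycerol synthesis, gpd1 rose by 1.3 (WT 0.82) and gpd2 had a change of -0.44 (WT -0.42). In the earlier list of genes of the Sty1 and Atf1 type, the only gene called lower was obr1, with a log2 change of -2.28 (WT -1.01).

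Among 13 genes of stress transcription factors, rsv2 and pcr1 were called higher, with log2 changes of 1.90 and 1.41 (WT 1.32 and 1.06), and none lower. Transcripts of atf1, the partner of Pcr1, were at 346 and 288 CPM in WT, at 314 and 293 in clone 1 and at 271 and 267 in clone 2, with a log2 change of -0.06 (adjusted p = 0.36, edgeR). Of 17 antioxidant genes 4 were called higher, namely gpx1, ctt1 and the glutathione S-transferase genes gst1 (2.05, WT 2.95) and gst3 (1.72, WT 1.12). None of the 17 was called lower.

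**Figure D3:**
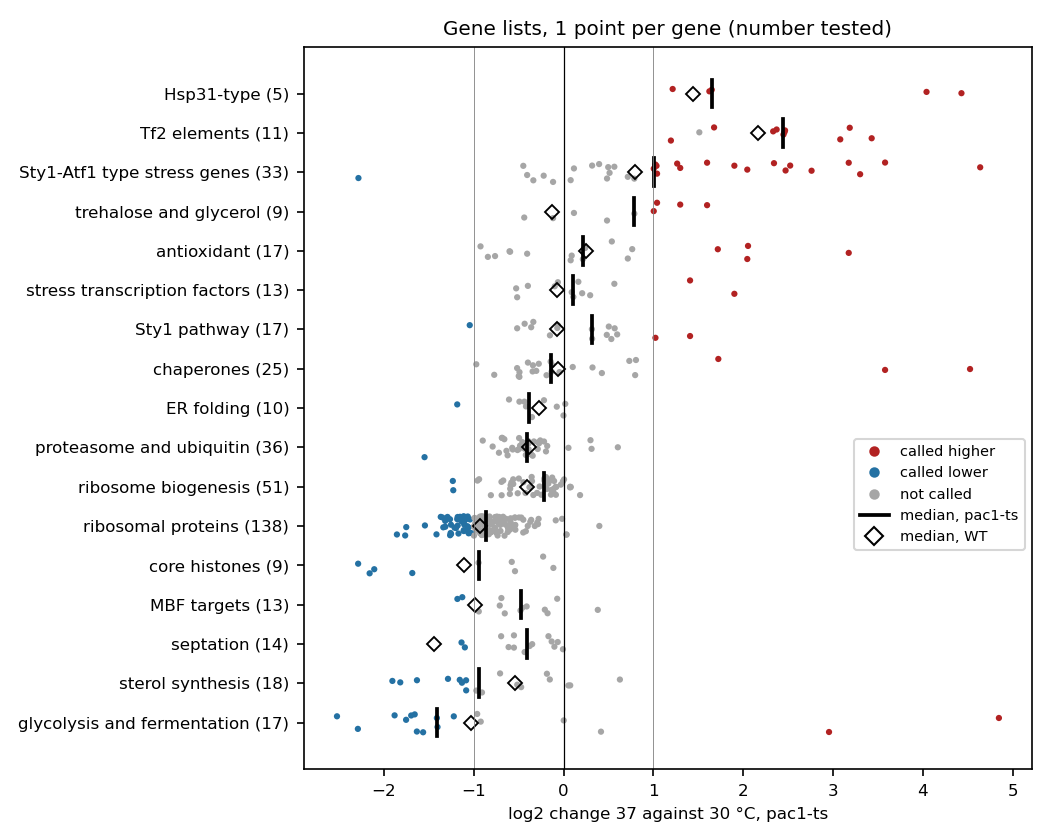
Log2 change from 30°C to 37°C in pac1-ts for the genes of 17 lists, 1 point per gene, with the median of each list in pac1-ts (bar) and WT (diamond) and lines at -1, 0 and 1. The pac1-ts medians run from 2.45 for Tf2 elements and 1.65 for Hsp31-type genes down to -1.41 for glycolysis and fermentation, and the WT median of septation genes lies at -1.44 against -0.41 in pac1-ts.

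The sequence before the start of 5 of these genes is shown. Each was called and carries the site of a factor known to control its group, so that they are chosen examples and not typical members. The 180 bases before the annotated gene start are given 5′ to 3′ from RefSeq ASM294v3, with each match in capitals, of GAANNTTC or TTCNNGAA (units of the heat shock element) for ssa1 and hsp16, TGACGT (bound by Atf1-Pcr1) for ctt1, CAGTCACA (the HomolD box of ribosomal protein genes) for rps1702 and ACGCGT (bound by MBF, the factor of G1 and S phase) for cdc22, where each motif was searched on both strands.
ssa1 (chrI:2297965-2298144, minus strand): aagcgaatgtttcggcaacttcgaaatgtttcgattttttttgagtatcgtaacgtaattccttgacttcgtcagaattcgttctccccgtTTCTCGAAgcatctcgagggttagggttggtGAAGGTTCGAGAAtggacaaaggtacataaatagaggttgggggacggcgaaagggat
hsp16 (chrII:2660993-2661172, minus strand): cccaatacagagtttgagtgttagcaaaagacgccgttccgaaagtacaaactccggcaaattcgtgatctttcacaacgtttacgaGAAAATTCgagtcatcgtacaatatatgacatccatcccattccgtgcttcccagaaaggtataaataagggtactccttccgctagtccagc
ctt1 (chrIII:58834-59013, minus strand): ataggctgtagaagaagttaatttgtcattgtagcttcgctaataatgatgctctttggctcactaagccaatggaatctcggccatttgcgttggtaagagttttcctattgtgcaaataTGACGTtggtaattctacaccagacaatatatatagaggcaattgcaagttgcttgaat
rps1702 (chrIII:917672-917851, plus strand): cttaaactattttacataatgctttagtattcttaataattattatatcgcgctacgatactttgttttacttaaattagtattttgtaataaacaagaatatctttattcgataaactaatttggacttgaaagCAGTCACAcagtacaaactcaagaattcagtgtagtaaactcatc
cdc22 (chrI:4226790-4226969, plus strand): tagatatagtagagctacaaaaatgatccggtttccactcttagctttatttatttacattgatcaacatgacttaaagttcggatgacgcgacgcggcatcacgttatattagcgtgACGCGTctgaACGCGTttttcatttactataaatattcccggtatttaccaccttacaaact

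Windows from 250 bases before to 50 after the gene start were searched for 5063 tested protein-coding genes. Heat shock units of the pattern above were in 56.0% of the chaperone windows and 19.9% of all windows, and in 19.9% of those of genes called higher. Both patterns were counted, and matches may overlap, as they do in ssa1, which has 3. The Atf1 core was in 27.3% of the windows of the 33 stress genes, in 18.3% of those of genes called higher, in 4.22% of those called lower and in 5.91% of all. The HomolD box was in 63.8% of the ribosomal protein windows, 11.0% of those of genes called lower and 2.71% of all. Matches to the MBF site were in 46.2% of the windows of MBF targets and 3.28% of all windows. Of the 14 chaperones with a heat shock unit, only hsp16 and ssa1 were called, and of the 6 MBF targets with the site only cdc22. Of the 9 stress genes with the Atf1 core, all but isp3 and grx1 were called higher. The shares of windows describe letters, not bound sites.

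Of the 10 largest falls, 5 were in methionine and one-carbon metabolism. S-adenosylmethionine synthetase (sam1, SPBC14F5.05c, chromosome II, 4162069 to 4163901), which makes the methyl donor of the cell, fell from 4375 to 486 CPM in WT, from 4772 to 273 in clone 1 and from 4036 to 257 in clone 2. Every 37°C library was under every 30°C library, which the choice of the named falls required of the clones. The log2 change was -4.05 (SE 0.085, adjusted p = 1.25e-18, edgeR) in pac1-ts and -3.17 in WT. Adenosylhomocysteinase (SPBC8D2.18c), which clears the product of methylation, followed with -3.45 (WT -3.47) and the methionine synthase gene met26 with -3.13 (WT -2.56).

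Among the 10 largest falls were also gcv3 of the glycine cleavage system with -2.62 (WT -2.08) and cho1, which methylates phospholipids, with -2.57 (WT -1.61). Because these stood out, a list of 24 genes of methionine synthesis, sulfate assimilation, one-carbon units and phospholipid methylation was made after their values were seen. Of these, 17 were called lower and none higher, with a median log2 change of -1.95 in pac1-ts and -1.54 in WT. The 5 genes that prompted the list are among the 17, so that this count is no separate support. A list of 12 purine synthesis genes, also made after values were seen, had 2 called lower and none higher. Its median log2 change was -0.535 in pac1-ts and -0.647 in WT. The other 5 of the 10 largest falls were urg2, a putative uracil phosphoribosyltransferase gene (-3.61, WT -3.10), the zinc transporter gene zrt1 (-3.20, WT -2.53), mei2, an RNA-binding protein needed for meiosis (-3.10, WT -2.79), thi2 of thiamine synthesis (-2.56, WT -1.39) and eno101 (-2.52, WT -1.32).

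Of 138 cytosolic ribosomal protein genes, 39 were called lower and none higher, with a median log2 change of -0.87 in pac1-ts and -0.94 in WT, and 133 of the 138 were lower at the adjusted p without a threshold on size. With library totals 11 were called lower and the medians were -0.58 and -0.52, against 0.31 and 0.40 for all genes. The largest fall was that of rps2601, from 1552 to 486 CPM in WT, from 964 to 241 in clone 1 and from 859 to 262 in clone 2, with a log2 change of -1.86 (SE 0.076, adjusted p = 4.02e-14, edgeR) and -1.68 in WT. It was followed by rpp101 of the ribosomal stalk with -1.76 (WT -1.51), and rps1702 of the HomolD example fell by 1.54 (WT -1.18). Genes of ribosome biogenesis, which build the ribosome in the nucleolus, moved less. Of 51, gar1 and nop10 of the H/ACA snoRNA particle were called lower (3.92%, against 4.86% of all genes), both with -1.23 (WT -1.26 and -1.19). The median of the list was -0.21 (WT -0.41), a sign that turned with library totals (0.07 and 0.00), where neither gene was called.

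In glycolysis and fermentation, 2 pairs of isoenzyme genes moved in opposite directions. Of 17 genes, 11 were called lower and 2 higher, with a median log2 change of -1.41 in pac1-ts and -1.03 in WT. The main enolase gene eno101 went from 19137 to 7680 CPM in WT, from 26359 to 4995 in clone 1 and from 25472 to 4068 in clone 2. Its paralog eno102, near an end of chromosome II, went from 6.75 to 140 CPM in WT, from 15.7 to 441 in clone 1 and from 19.9 to 585 in clone 2. In every strain the first fell and the second rose, though eno102 stayed well under eno101 at 37°C in counts over genes of similar length.

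The pyruvate decarboxylase genes moved the same way, pdc101, which fell by 1.75 (WT -1.34), and pdc201, which rose by 2.96 (WT 2.11). The longest identical stretches within these pairs of transcripts are 18 and 17 nt, well under the length of a read. Alcohol dehydrogenase (adh1), the last step of fermentation, fell by 2.29 in pac1-ts (WT -1.03), and triose-phosphate isomerase (tpi1) fell by 1.88 (WT -1.04). For eno101 and adh1 the fall in pac1-ts exceeded that in WT by a called difference of -1.21 and -1.26 (adjusted p = 1.88e-05 and 3.26e-06, edgeR), which was not called without the clone block (adjusted p = 0.069 and 0.031).

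Sterol synthesis, which supplies the membrane with ergosterol, had 8 of 18 genes called lower and none higher, with a median log2 change of -0.94 (WT -0.54). The largest falls were those of erg6 with -1.91 (WT -1.38), erg11, the target of azole drugs, with -1.82 (WT -1.42) and erg28 with -1.63 (WT -1.49). With library totals 4 of the 18 were called. Of 5 phosphate uptake genes 3 were called lower and none higher, of 14 iron uptake genes 2 lower and none higher (1 and 2 with library totals), and of 8 hexose transporter genes 2 lower and 1 higher. The phosphate transporter gene pho84 fell by 2.40 (WT -0.79) and the siderophore transporter gene str1 fell by 1.49 (WT -1.85).

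Paralogs among the core histones also moved by different amounts. The H3 and H4 genes of one divergent pair, hht1 and hhf1, fell by 2.29 and 2.16 on the log2 scale (WT -1.45 and -1.27). For hht1 the levels were 205 and 75.4 CPM in WT, 264 and 60.0 in clone 1 and 271 and 49.7 in clone 2, with no overlap between the temperatures. The genes hht2 and hhf2 of another pair had log2 changes of -0.11 and -0.23 (WT -0.28 and -0.37), and hht2 overlapped between the temperatures, with 332 and 274 CPM in WT, 318 and 271 in clone 1 and 395 and 396 in clone 2. In all, 4 of 9 histone genes were called lower, the other 2 being the H2A genes hta2 with -2.11 (WT -1.48) and hta1 with -1.68 (WT -1.34). The median log2 change of the 9 was -0.95 (WT -1.11), between the changes of hht1 and hht2. Identical stretches of up to 48 nt between paralogs, such as hht1 and hht2 or hhf1 and hhf2, come close to the length of a read. Part of the counts therefore rests on few distinguishing bases.

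Genes of septation and of G1 and S phase had lower medians in WT than in pac1-ts. In bulk samples fewer cells in a phase and less RNA per cell cannot be told apart. Of 14 septation genes 2 were called lower in pac1-ts, with a median log2 change of -0.41, while the WT median was -1.44 and 8 of the 14 passed a log2 change of -1. The difference between pac1-ts and WT was called for 6 of the 14, all with the smaller fall in pac1-ts, against 1.17% of all genes called in that direction. Without the clone block 0 of these 6 differences were called, with adjusted p from 0.016 to 0.11 (edgeR).

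The endoglucanase gene eng1, which digests the septum between daughter cells, was at 596 and 101 CPM in WT, at 335 and 165 in clone 1 and at 249 and 110 in clone 2. WT was highest at 30°C and lowest at 37°C. The log2 change was -1.10 in pac1-ts and -2.56 in WT, a difference of 1.46 (SE 0.108, adjusted p = 2.7e-08, edgeR, and 0.024 without the clone block). The gene adg1 went from 112 to 28.3 CPM in WT, from 54.5 to 61.5 in clone 1 and from 41.3 to 32.2 in clone 2, so that the clones moved in opposite directions. Its log2 change was -0.07 in pac1-ts and -1.98 in WT, a called difference of 1.92 (adjusted p = 9.48e-08, edgeR, and 0.023 without the block). The calls of eng1 and slp1, an activator of the anaphase-promoting complex, were lost without the 30°C library of clone 1 (-0.86 and -0.98) or the 37°C library of clone 2 (-0.83 and -0.96), in the model with no block. With library totals neither was called (-0.81 and -0.85 for eng1 and slp1).

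Of 13 MBF targets, cdc22, the large subunit of ribonucleotide reductase, and dut1 were called lower, with log2 changes of -1.18 and -1.13 (WT -2.31 and -1.82), and the median was -0.48 in pac1-ts and -0.99 in WT. The difference was called for 4 of the 13, namely cdc22 with 1.13, mik1, which delays mitosis, with 1.33, cdt2 with 1.24 and cdt1, which licenses replication origins, with 1.09. Without the clone block 2 of the 4 were called, mik1 and cdt2, and the adjusted p of cdt1 was 0.044 (edgeR). The difference of cdc22 had an adjusted p of 8.46e-07 (edgeR) and of 0.010 without the clone block, and fell to 0.88 without the 37°C library of clone 1. The call of dut1 was lost without the 30°C library of clone 1 (-0.97) or the 37°C library of clone 2 (-0.74), and those of cdc22 and dut1 with library totals (-0.90 and -0.84).

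**Figure D4:**
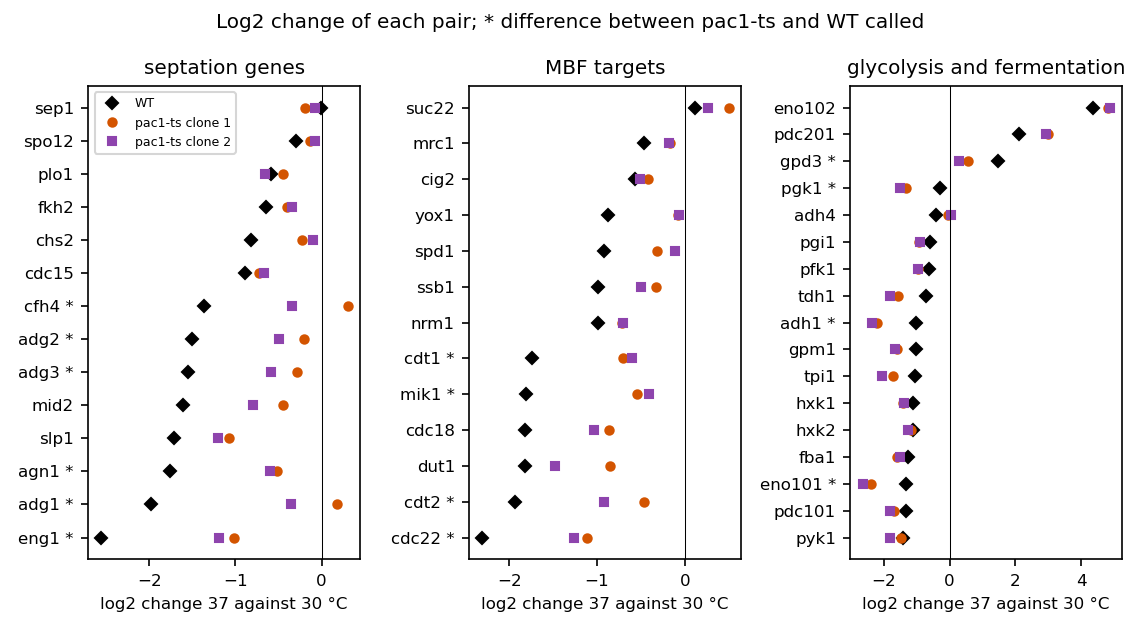
Log2 change from 30°C to 37°C of each pair of libraries (x axis) for 14 septation genes, 13 MBF targets and 17 genes of glycolysis and fermentation (y axis), with WT as diamonds, clone 1 as circles and clone 2 as squares. Stars mark the genes with a called difference between pac1-ts and WT in the fit with the clone block, 6 among septation genes and 4 in each of the other lists, of which 0, 2 and 1 were called without the block, and the WT point of eng1 at -2.56 lies left of both clones.

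Across all genes the difference between the heat changes of pac1-ts and WT was called higher for 79 genes and lower for 41, or 1.17% and 0.609% of those tested, and for 48 and 19 without the clone block. The largest among protein-coding genes were SPCC757.02c and SPAC4F10.17 (2.69 and 2.31 on the log2 scale), SPCC1739.08c, annotated as a dehydrogenase (2.15), the invertase gene inv1, which splits sucrose (2.09), and SPAC212.08c, which encodes a GPI-anchored protein (1.94). For inv1 the levels were 80.5 and 121 CPM in WT, 60.4 and 348 in clone 1 and 61.9 and 443 in clone 2. WT moved little while both clones rose, with adjusted p = 2.64e-09 (edgeR) for the difference. SPAC212.08c was at 113 and 13.2 CPM in WT and between 28.4 and 33.4 at 30°C in the clones, so that the strains differed at 30°C and were close at 37°C, with 14.1 and 13.4 CPM in the clones.

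In the other direction stood nrg1, annotated as an amino-acid permease (-2.74), mug146 (-2.31), the copper transporter gene ctr4 (-1.92), SPCC569.09 (-1.89) and spo13 (-1.67). For nrg1 the levels were 11.4 and 65.7 CPM in WT, 48.7 and 47.3 in clone 1 and 59.1 and 45.8 in clone 2. The clones were above WT at 30°C, and the change was seen in WT. The differences of ctr4 and spo13 had adjusted p = 0.032 and 0.047 without the clone block, and those of mug146 and spo13 had 0.012 and 0.27 with DESeq2. For spo13 the difference was also not called in any of the fits without the block that left out 1 library, with values from -1.77 to -1.57.

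Of 6 small nuclear RNA genes tested, 3 were called higher in pac1-ts. The U2 and U5 small nuclear RNA genes snu2 and snu5, whose products are parts of the spliceosome, had log2 changes of 1.89 and 1.66 in pac1-ts and of 0.07 and 0.19 in WT, with called differences of 1.82 and 1.47. For snu5 the clones were at 562 and 615 CPM at 30°C and at 1590 and 2164 at 37°C, while WT was at 17.8 and 20.3. The snoRNA gene snoU14 went the same way, with 1.52 in pac1-ts and 0.19 in WT. These genes were picked because the study or an earlier analysis of these samples had named them for their change in pac1 mutants, so they are not independent evidence of a direction. The 38 genes of the mitochondrial genome had a median log2 change of 0.68 in pac1-ts and 0.06 in WT, with 4 called higher and the difference called for 6. The mitochondrial share of the counts went from 13.2% to 14.4% in WT, from 17.3% to 20.3% in clone 1 and from 17.4% to 21.7% in clone 2.

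Transcripts of lncRNA genes rose more often than they fell. Of 1290 lncRNA genes tested, 163 were called higher and 15 lower, or 12.6% and 1.16%, against 246 and 308 of 5063 protein-coding genes (4.86% and 6.08%). The median log2 change of lncRNA genes was 0.32 in pac1-ts and 0.38 in WT, and that of protein-coding genes -0.09 and -0.11. With library totals, the counts were 280 and 8 against 436 and 137. Among the 883 lncRNA genes that overlap a protein-coding gene on the other strand, 127 were called higher (14.4%), and of the 309 that overlap none, 22 (7.12%). The 170 protein-coding genes opposite a lncRNA that rose had a median of -0.07 and the 891 opposite another had -0.02. Protein-coding genes of 1 exon were called in 185 and 199 of 2570 cases (7.20% higher and 7.74% lower), and those of 5 or more exons in 7 and 8 of 341.

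**Figure D5:**
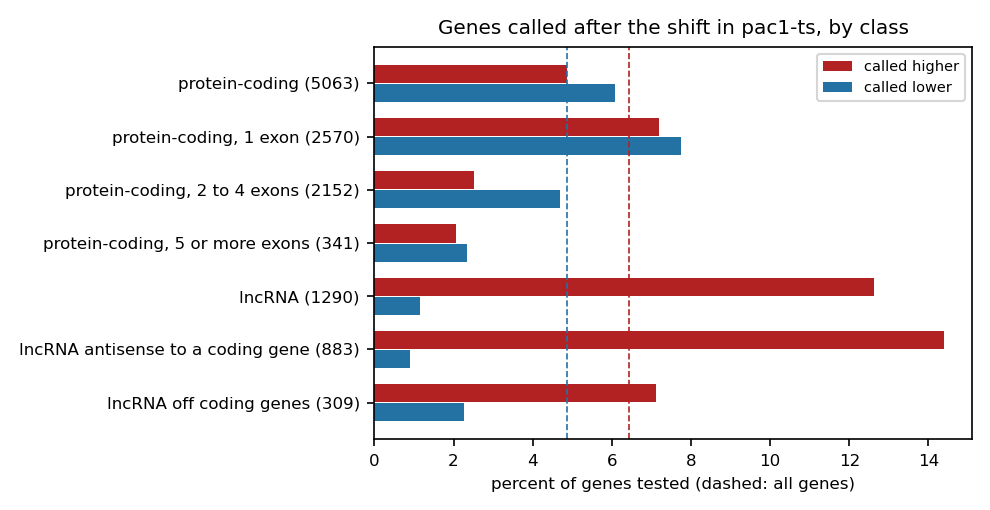
Share of tested genes called higher (red) and lower (blue) after the shift in pac1-ts, in percent, by class of gene, with the number tested in brackets and dashed lines at the shares of all genes (6.44% and 4.86%). Antisense lncRNA genes reach 14.4% higher and 0.906% lower, and protein-coding genes of 1 exon exceed those of 5 or more exons in both directions.

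The lncRNA genes with the largest rises were SPNCRNA.1480 with a log2 change of 3.77 (WT 2.93), SPNCRNA.602 with 3.44 (WT 4.27) and SPNCRNA.1211 with 3.16 (WT 3.05). SPNCRNA.1480 (chromosome II, 1951122 to 1951972) ends 866 bases upstream of lsd90 on the same strand, one of the 10 largest rises. Its levels were 18.2 and 139 CPM in WT, 16.8 and 202 in clone 1 and 15.5 and 239 in clone 2. They were higher at 37°C in every strain, which the choice of the named genes required. SPNCRNA.602 lies over nhe1 and SPNCRNA.1211 over SPCC777.06c, both on the other strand.

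The largest falls were those of SPNCRNA.1617 with -2.29 (WT -1.10), SPNCRNA.1505 with -1.97 (WT -1.59) and SPNCRNA.1444 with -1.70 (WT -1.46). SPNCRNA.1505 (chromosome II, 2335158 to 2337882, plus strand) covers all 2612 bases of the phosphoketolase gene SPBC24C6.09c on the minus strand, and the 2 moved in opposite directions. The antisense RNA was at 120 and 39.9 CPM in WT, at 103 and 27.1 in clone 1 and at 104 and 25.7 in clone 2. The phosphoketolase transcript was at 15.5 and 369 CPM in WT, at 21.3 and 669 in clone 1 and at 23.1 and 628 in clone 2. Fragments were counted by strand, so that the pair was told apart at this locus.

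The Tf2 retrotransposons, the long terminal repeat elements of fission yeast, were called higher at 10 of the 11 annotated copies tested, of 13 in the table, with a median log2 change of 2.45 in pac1-ts and 2.16 in WT. The strongest was Tf2-2 with 3.43 (WT 3.64), at 3.64 and 45.6 CPM in WT, 2.70 and 37.98 in clone 1 and 4.15 and 36.1 in clone 2. Copies share long identical stretches, 1347 nt between Tf2-2 and Tf2-11, so that reads cannot be assigned to a copy with certainty and the copies are not separate measurements.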

How the data were processed

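RNA of WT and of both pac1-ts clones, each at 30°C and 37°C, was sequenced on rRNA-depleted, paired 50-nt libraries. The authors trimmed the reads, aligned them to ASM294v2 with HISAT2 and counted fragments per gene by strand with featureCounts, and the deposited values are these raw counts, with no normalization. Versions of these tools are not given in the sources used here.

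After filterByExpr (minimum count 10) and TMM scaling, the counts entered edgeR's quasi-likelihood test (edgeR 4.0.16, R 4.3.3), with strain as block and separate heat terms for pac1-ts and WT. Calls needed both a log2 change beyond 1 in size and an adjusted p under 0.01. The block rests on clone identity in the labels, which give each clone its own strain number, whereas the study's list of datasets gives all pac1-ts libraries the number of clone 1. Same-clone libraries deviated together (r = 0.528). With strain as block, p-values rest on how far the heat change differed between the 2 clones and mostly on a spread estimated across genes (median prior degrees of freedom 17.94). They do not measure the spread of levels between clones. Genes named are the 10 largest rises and falls with a mean count of at least 50 and one direction in all strains, the largest differences, the largest changes of lncRNAs and members of lists. The members and lists were chosen with earlier results of these data known. On simulated counts of 6709 genes, 100 of 100 changes of log2 1.5 were recovered. These changes lay beyond the threshold of 1, so that the result does not cover smaller changes or the spread between real clones. Alternatives were DESeq2 1.42.0, other scalings, filters and thresholds, the model without block and each pac1-ts library left out. Limits of detection cover counting error only. Of the gene IDs, 6844 of 7049 matched RefSeq ASM294v3, used for names, classes and promoter sequence, while coordinates of genes are those of ASM294v2. Some results are not reported here.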

Additional observations from a re-analysis of the deposited data

Results flagged for a closer look

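The heat change differed between pac1-ts and WT, by the test of the difference itself (edgeR, 1 WT pair assumed to vary as the clone pairs), for gld1 as given above and for 29 others of the genes described. Values are differences of log2 change, pac1-ts minus WT.

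Of these 29, 19 were above 0. Among metabolic and uncharacterized genes they were 2.69 for SPCC757.02c, 2.31 for SPAC4F10.17, 2.15 for SPCC1739.08c, 2.09 for inv1, 1.94 for SPAC212.08c and 1.90 for gut2, a glycerol-3-phosphate dehydrogenase. Among septation and cell-cycle genes they were 1.92 for adg1, 1.46 for eng1, 1.33 for mik1, 1.24 for cdt2, 1.13 for cdc22 and 1.09 for cdt1. The stress genes hsp3102, hsp3103 and ddr48 had 1.83, 1.33 and 1.297. The small RNA genes snu2, snu5 and snoU14 had 1.82, 1.47 and 1.33, and pac1 itself had 1.25.

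The other 10 were below 0. They were -2.74 for nrg1, -2.31 for mug146, -1.92 for ctr4, -1.89 for SPCC569.09, -1.67 for spo13, -1.61 for pho84, -1.27 for obr1, -1.26 for adh1, -1.21 for eno101 and -1.17 for thi2. Of the 29, those of ctr4, adg1, eng1, adh1, cdc22, cdt1, eno101, thi2 and spo13 were not called without the clone block.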

How the results depend on the processing

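Leaving gld1 aside, no called change of a named gene turned its direction under any alternative run. Of uncalled changes described, those of nrg1, adg1, hht2, hhf2 and atf1 were above 0 with library totals alone (0.08, 0.22, 0.17, 0.06 and 0.22). Library totals alone gave 762 genes higher and 147 lower. A log2 threshold of 0.5 gave 1187 higher, 1178 lower, 1770 past that fold in WT and 356 differences, and no fold threshold gave 1828, 2107, 3742 and 420. Without the replicate block, 423 genes were higher and 323 lower, and differences fell from 120 to 67. Leaving out 1 pac1-ts library, in the model without block where an arm of 1 library is assumed to vary like the others, gave 370 to 440 genes higher, 285 to 390 lower, 457 to 516 past the fold in WT and 97 to 113 differences. DESeq2 gave 392 genes higher and 327 lower, with 58 and 28 differences above and below 0 (cdt1, mug146 and spo13 were not among them). Of the named genes other than gld1, SPCC1739.08c, ctr4, snu2, snu5, snoU14, tps1 and hsp3103 were not called with 1 heat effect common to all strains. With 1 WT library per temperature, the WT change alone has no test, and heat and further loss of Pac1 function cannot be told apart in pac1-ts.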
